A study of Mus musculus with 4 samples.

Results

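The genes described here are 10 that encode the kinases, break sensors and checkpoint proteins of the DNA damage response: Atm, Atr, Prkdc, Xrcc5, Xrcc6, Chek1, Chek2, Trp53, Trp53bp1 and Mdc1. They were chosen by name, and 9 of the 10 were measured, out of 22180 genes in all. Trp53, which encodes p53 itself, was not named by a probe in the annotation used and is not analysed here, so the other members could not be set against it. The cells were B16-OVA, a mouse melanoma line that carries ovalbumin as a model antigen. In 1 group of 2 arrays they had been mock transfected, and in the other group of 2 arrays they had been transfected with AT90ES. The treatment text, which is the same for both groups, gives a double-stranded DNA of 90 bp delivered with Lipofectamine 2000 for 6 hours, so the labels leave unsaid what the mock cells were given. Levels are log2 values of the deposited array table, where a difference of 1 is a doubling.

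A broken chromosome is recognised by proteins that bind the ends or the chromatin beside them, and these recruit large kinases of a single family. ATM answers to double-strand breaks, ATR to single-stranded DNA at stalled replication forks, and the catalytic subunit of DNA-PK, encoded by Prkdc, to ends held by the Ku proteins. The kinases pass the signal to CHK2 and CHK1, which hold the cell cycle, and to p53, which activates genes of arrest and repair. Most of this signalling runs through phosphorylation and protein stability, which an RNA array does not measure. In melanocytes and melanoma the same kinases act in the answer to ultraviolet damage and oncogene-driven replication. Ku and DNA-PK have also been studied as sensors of foreign DNA in the cytoplasm, upstream of interferon.

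Atm was the member that rose. Mock cells had log2 levels of 8.03 and 8.04, and AT90ES cells had 9.21 and 9.32. The mock values almost coincided, and both AT90ES arrays lay far above them. The change was 1.23 ± 0.12 (SE) on the log2 scale, a 2.35-fold rise with a 95% interval of 1.92 to 2.88, and its adjusted p was 0.0243 in limma, a linear model test with the spread shared across genes. This made 1 of 9 measured members higher and 0 lower at the threshold of 0.05, beside 0.415% of all genes higher and 0% lower. At an unadjusted p under 0.05, 1 member was higher, Atm, against 4.5% of all genes, and 1 was lower, Chek1, against 4.59%. With an intensity trend in the spread, where dim and bright genes are given separate expectations, limma called Atm higher, against 1.94% of all genes, and Chek1 lower, against 0.73%. Atm ranked 75 by size among the 92 genes called higher. Leaving out any 1 of the 4 arrays ended the call. The adjusted p was 0.111 and 0.113 without the first and the second mock array, and 0.14 and 0.184 without the first and the second AT90ES array. In those fits the change stayed between 1.18 and 1.29, and the lone array was assumed to vary like the other group.

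**Figure D1:**
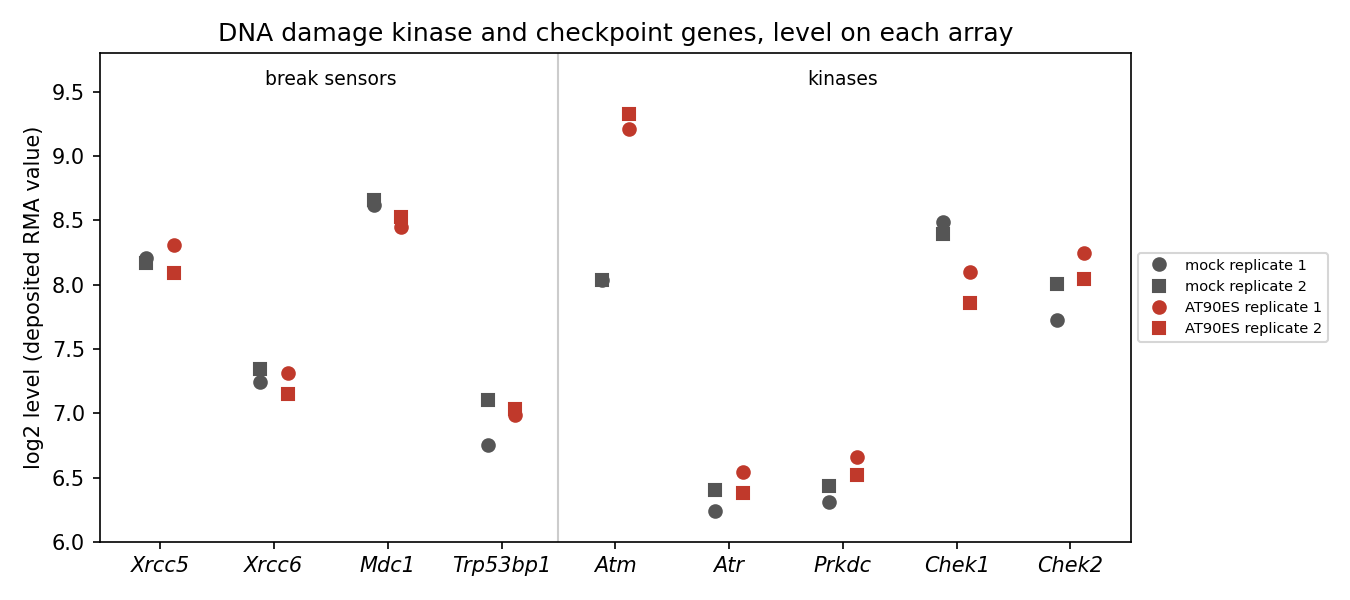
Log2 level (vertical axis) of the 9 measured genes on each array, with mock arrays in grey, AT90ES arrays in red, circles for replicate 1 and squares for replicate 2. The AT90ES arrays stand clear of the mock arrays for Atm, at 9.21 and 9.32 against 8.03 and 8.04. Heights of different genes come from different probes and are not to be compared.

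The DNA in front of Atm is shown because Atm shares it with another gene. Npat, which encodes a coactivator of histone genes, starts on the opposite strand in the neighbouring DNA, and the RefSeq promoter windows of both genes (GRCm38.p6, 300 bases each) overlap by 125 bases at chr9:53536797-53536921. The stretch printed holds the 250 bases before the Atm start site in that table, chr9:53536672-53536921 on the minus strand, 5′ to 3′, with the bases shared with the Npat window in capitals.
Atm: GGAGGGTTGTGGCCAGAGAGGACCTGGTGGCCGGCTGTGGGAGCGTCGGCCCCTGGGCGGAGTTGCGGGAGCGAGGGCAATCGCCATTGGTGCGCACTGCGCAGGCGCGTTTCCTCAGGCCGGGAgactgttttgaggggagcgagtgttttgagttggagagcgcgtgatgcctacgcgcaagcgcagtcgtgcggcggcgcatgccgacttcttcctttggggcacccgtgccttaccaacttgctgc
Npat was looked up after the change of Atm was seen. Its log2 level was 8.26 and 8.38 in mock cells and 8.34 and 8.36 in AT90ES cells, so the groups overlapped. The change of Npat was 0.04 ± 0.12 (SE, adjusted p = 0.958 in limma), and Atm changed by 1.20 more than Npat, with a 95% interval of 0.78 to 1.61. This interval, like the other intervals of differences given here, treats the errors of both probes as independent. The pair was chosen after its values were seen, so it is given without a test.

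The other kinases of the Atm family did not pass the test. Atr, the kinase of replication stress, had log2 levels of 6.24 and 6.41 in mock cells and 6.55 and 6.38 in AT90ES cells. These values overlapped, and the change was 0.14 ± 0.13 (SE, adjusted p = 0.807 in limma). A dimmer probe of Atr gave a change of 0.24, with all 4 arrays under the 95th percentile of the olfactory receptor family, which melanoma cells are assumed not to express. Prkdc had log2 levels of 6.31 and 6.43 in mock and 6.66 and 6.52 in AT90ES cells. Both AT90ES arrays lay above both mock arrays, but by less than the difference between the AT90ES arrays, and the change was 0.22 ± 0.13 (SE, adjusted p = 0.664 in limma). Atm changed by 1.09 more than Atr on the log2 scale (95% interval 0.65 to 1.53) and by 1.01 more than Prkdc (0.59 to 1.44). Between Atr and Prkdc the difference of the changes was -0.08, with an interval of -0.53 to 0.37 that leaves room for a difference in either direction. These differences were drawn up after the values were seen and carry no test.

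The checkpoint kinases downstream lay on opposite sides of 0. Chek1, which encodes the kinase activated by ATR, had log2 levels of 8.49 and 8.40 in mock cells and 8.10 and 7.86 in AT90ES cells. Both AT90ES arrays lay under both mock arrays, and the AT90ES arrays stood further from each other than the mock arrays did. The change was -0.46 ± 0.14 (SE), 1.38-fold lower, with an adjusted p of 0.426 in limma. With the intensity trend the adjusted p of Chek1 was 0.0332. Chek2, which encodes the kinase activated by ATM, had levels of 7.72 and 8.00 in mock and 8.25 and 8.04 in AT90ES cells. The upper mock array nearly reached the lower AT90ES array, and the change was 0.28 ± 0.15 (SE, adjusted p = 0.652 in limma). Chek2 lay 0.75 above Chek1 in its change, with a 95% interval of 0.24 to 1.25, in a pair compared after the values were seen.

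**Figure D2:**
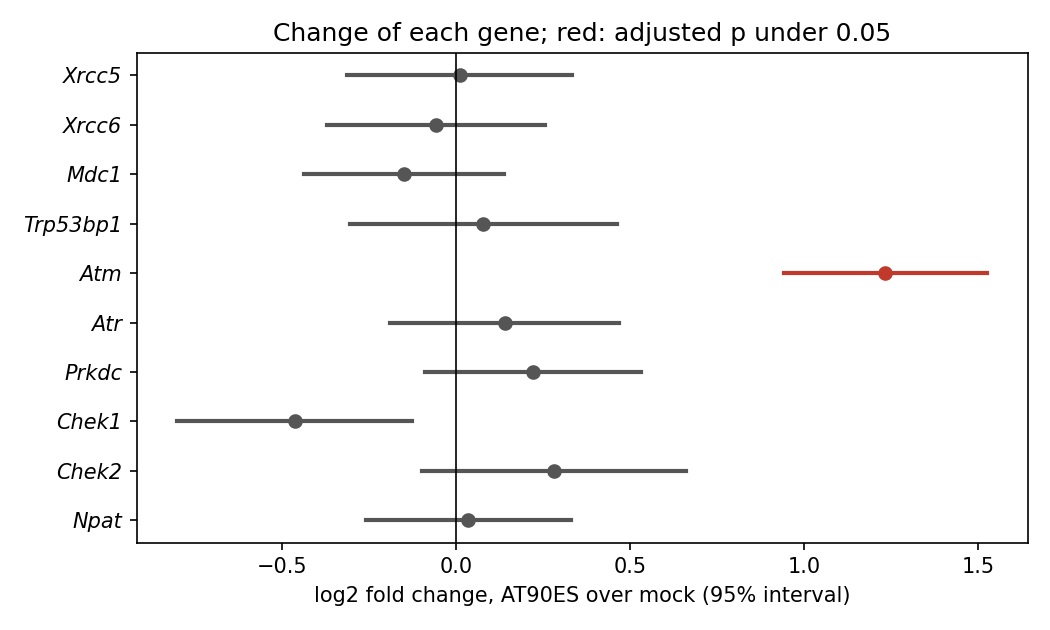
Log2 fold change of AT90ES over mock (horizontal axis) with its 95% interval from limma for the 9 measured genes and Npat, red where the adjusted p is under 0.05. The interval of Atm runs from 0.94 to 1.53, that of Chek1 lies under 0 at -0.80 to -0.13 without passing after adjustment, and those of the other genes include 0.

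Xrcc5 and Xrcc6 encode Ku80 and Ku70, which together form the ring that grips a DNA end. Xrcc5 had log2 levels of 8.21 and 8.17 in mock and 8.30 and 8.09 in AT90ES cells, with the AT90ES arrays on either side of the mock arrays. Its change was 0.01, with a 95% interval of -0.31 to 0.33. Xrcc6 had levels of 7.24 and 7.34 in mock and 7.31 and 7.15 in AT90ES cells, again overlapping. The change of Xrcc6 was -0.06, with an interval of -0.37 to 0.25, and adjusted p-values from limma were 0.989 and 0.929 for the pair. These intervals reach no further than 1.26-fold up for Xrcc5 and 1.19-fold up for Xrcc6, so a change of the size measured for Atm lies outside both.

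Mdc1 and Trp53bp1 encode proteins that gather on the chromatin around a break. Mdc1, which reads the phosphorylated histone H2AX, had log2 levels of 8.62 and 8.66 in mock and 8.44 and 8.53 in AT90ES cells. Both AT90ES arrays lay under both mock arrays, by a change of -0.15 ± 0.12 (SE, adjusted p = 0.755 in limma). Trp53bp1, whose product 53BP1 steers breaks towards end joining, had levels of 6.75 and 7.11 in mock and 6.98 and 7.03 in AT90ES cells. The AT90ES arrays fell between the mock arrays, and the change was 0.08 ± 0.16 (SE, adjusted p = 0.923 in limma). A further probe, assigned to both Tubgcp4 and Trp53bp1 and so not used for either gene, gave 8.59 and 8.50 in mock and 8.48 and 8.43 in AT90ES cells. Over the members, 3 of 9 had both AT90ES arrays above both mock arrays, against 17.7% of all genes, and 2 of 9 had both below, against 22.1%. The median change of the 9 was 0.08, beside -0.02 over all genes. It was 0.03 and 0.22 without the first and the second mock array.

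**Figure D3:**
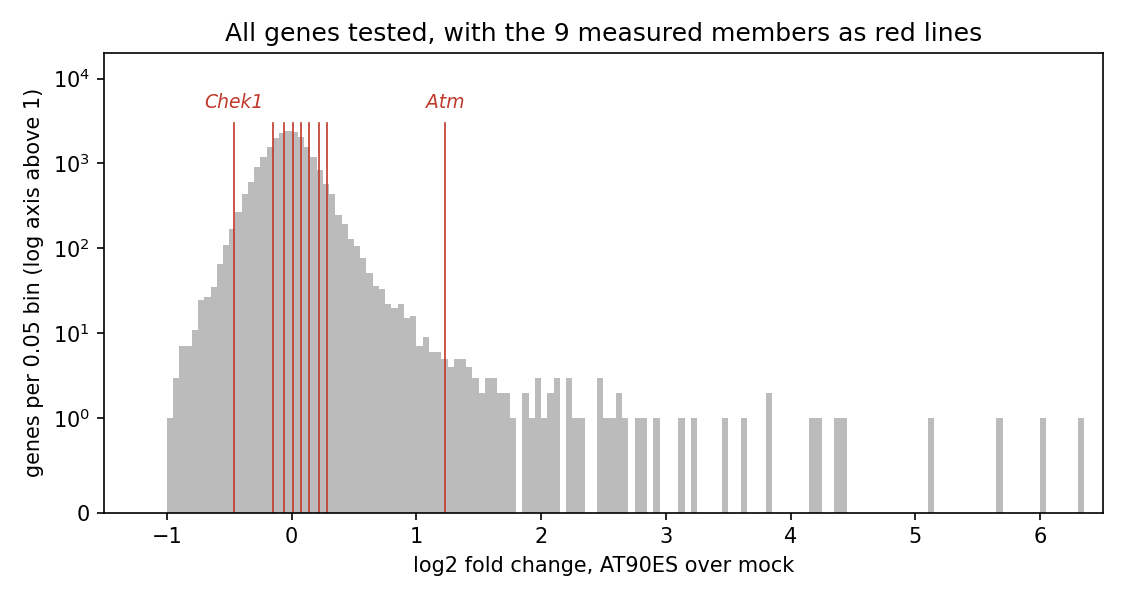
Number of genes (vertical axis, logarithmic above 1) by log2 fold change of AT90ES over mock (horizontal axis, bins of 0.05) for the 22180 genes, with the 9 members as red lines. Atm, at 1.23, stands in the sparse right tail, Chek1, at -0.46, in the left flank and the other 7 in the central peak.

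Short stretches of the Chek1 and Mdc1 windows are shown because both hold a letter string typical of sites for E2F, the factor that drives genes of DNA synthesis. The string searched was GGCGGGAA, on both strands of the 300-base RefSeq windows, and it was chosen after the values were seen. It was found in 2 of the 8 measured members with a window and in 2.19% of all windows. Each line gives 30 bases, 5′ to 3′ in the direction of the gene (GRCm38.p6, chr9:36726609-36726638 minus strand for Chek1, chr17:35841461-35841490 plus strand for Mdc1), with the match in capitals.
Chek1: cagcatgacgcaagcaggttttGGCGGGAA
Mdc1: attagcgttttcttcagcctgtTTCCCGCC
In the Mdc1 line the capitals are the reverse complement of the string. A match describes letters and not a bound site. The half-site consensus of p53, searched the same way, was in 0 of the 8 windows and in 8.36% of all windows. With so few windows of 300 bases, this does not say whether these genes hold such a site. The DNA outside the windows was not searched. A CCAAT box, searched on both strands, was in 5 of the 8, the Atm window among them, and in 37.4% of all. The string GGGCGG was in 5 of 8 and in 35.7% of all windows, and TTTGAA, an element of cell cycle genes, was in 0 of 8 and in 17.9%.

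Of 8 measured genes of the MRN complex and ATM activation, limma without the trend called 0 higher, against 0.415% of all genes. It called 0 lower, against 0%. At an unadjusted p under 0.05, 1 was higher, against 4.5% of all genes, and the same gene was higher with the trend, against 1.94%. That gene was Ppm1d, which encodes the phosphatase that switches ATM and p53 off again and was named after its value was seen. Its log2 levels were 7.59 and 7.65 in mock and 8.22 and 8.15 in AT90ES cells, a clear gap on these arrays, with a change of 0.57 ± 0.12 (SE, adjusted p = 0.252 in limma and 0.00694 with the trend). Rad50, a structural subunit of MRN, changed by 0.13, Nbn, the subunit that binds ATM, by -0.19, and Cops5 by 0.08. The list median was 0.09, and it was 0.02 without AT90ES replicate 1.

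For the ATR branch, 14 partners were measured. In limma 0 were called higher, against 0.415% of all genes, and 0 lower, against 0%. With a trend 0 were higher, against 1.94%, and 0 lower, against 0.73%. At an unadjusted p under 0.05, 0 were higher, against 4.5%, and 2 were lower, against 4.59%. The pair was Clspn, the adaptor through which ATR reaches CHK1, and Rpa2, a subunit of the protein that coats single-stranded DNA, named after its value was seen. Clspn had log2 levels of 7.15 and 7.39 in mock and 6.87 and 6.80 in AT90ES cells, with a change of -0.44 ± 0.14 (SE, adjusted p = 0.451 in limma). Rpa2 changed by -0.40. Atrip, the partner that carries ATR to DNA, changed by 0.05, Topbp1, its activator, by -0.21 and Rpa1 by 0.07. A further probe, assigned to both Trex1 and Atrip and so not used for either gene, changed by 0.81 (adjusted p = 0.565 in limma over single probes). Its mock levels, 4.18 and 4.60, lay under the olfactory receptor percentile. The list median was -0.16, with 9 of 14 values under 0, against 54.6% of all genes, and it was -0.06 without mock replicate 2 and -0.09 without AT90ES replicate 2.

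Genes of the H2AX and 53BP1 chromatin pathway had changes from -0.30 to 0.22. Of 14 measured, 0 were called in limma, against 0.415% of all genes higher and 0% lower. At an unadjusted p under 0.05, 0 were higher, against 4.5%, and 0 lower, against 4.59%. With a trend 0 were called, against 1.94% higher and 0.73% lower. The median of these genes was -0.09, with 10 of 14 values under 0, against 54.6% of all genes. It was -0.19 without mock replicate 1 and -0.04 without mock replicate 2. Both AT90ES arrays lay below both mock arrays for 8 of 14, against 22.1% of all genes, and above for 0, against 17.7%. H2ax, the histone variant phosphorylated around breaks, changed by -0.05 and Kmt5a, a histone H4 methyltransferase of the pathway, by -0.07. Among 9 measured effectors of end joining, 0 were called in limma, against 0.415% of all genes higher and 0% lower. With a trend 0 were called, against 1.94% higher and 0.73% lower. At an unadjusted p under 0.05, 1 was higher, against 4.5% of all genes: Nhej1, an end-bridging factor named after its value was seen, at 0.40. Lig4, the ligase that seals the ends, changed by 0.04, Xrcc4, its scaffold, by 0.18, Aplf by -0.16 and Aptx by -0.01.

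The cell cycle genes on which CHK1 and CHK2 act had mostly negative changes. Of 11 measured, 0 were called in limma without the trend, against 0.415% of all genes higher and 0% lower. At an unadjusted p under 0.05, 5 were lower, against 4.59% of all genes, and with the intensity trend 5 were lower, against 0.73%. Wee1, the kinase that restrains CDK1, had log2 levels of 8.29 and 8.42 in mock and 7.67 and 7.71 in AT90ES cells, and its change was -0.66 ± 0.12 (SE, adjusted p = 0.188 in limma and 0.00217 with the trend). Cdc25a, the phosphatase that CHK1 marks for destruction, stood at 9.35 and 9.39 in mock and 8.89 and 8.81 in AT90ES cells, a change of -0.52 (adjusted p = 0.301 in limma and 0.00167 with the trend). Both AT90ES arrays lay below both mock arrays for either gene. This held for 7 of the 11, against 22.1% of all genes, and 1 lay above, against 17.7%. Plk1, a mitotic kinase, changed by -0.46 and Cdk2 by -0.20. Ccna2 and Cdk1, named after their values were seen, changed by -0.33 each. The list median was -0.20, and 9 of 11 values were under 0, against 54.6% of all genes.

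**Figure D4:**
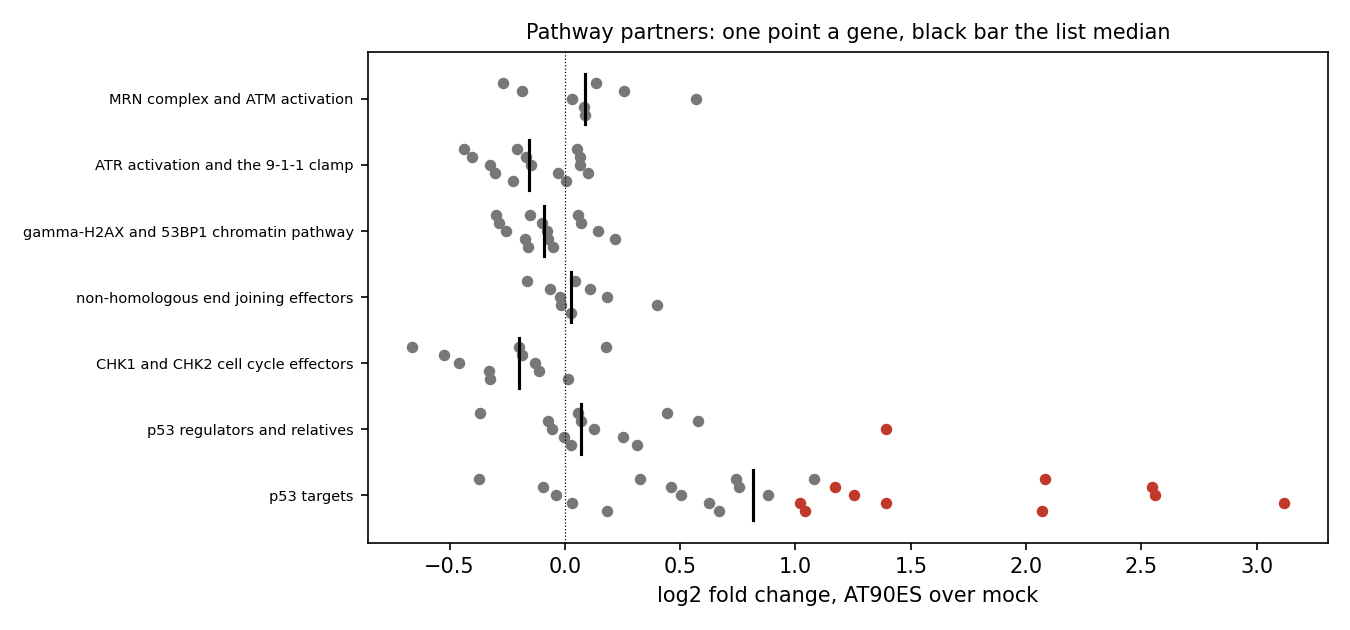
Log2 fold change of AT90ES over mock (horizontal axis) for the measured genes of 7 pathway lists, 1 point a gene, red where the adjusted p is under 0.05, with the list median as a black bar. Red points appear among the p53 targets, where 10 of 24 were called higher, and in p53 regulators, where the 1 red point is Mdm2.

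The targets of p53 held more calls than any other list examined here. Of 24 measured, 10 were called higher and 0 lower, against 0.415% and 0% of all genes. The list median was 0.82, beside -0.02 over all genes. Of the 24 values, 3 were under 0, against 54.6% of all genes. They were Pmaip1 at -0.37, Perp at -0.10 and Sesn1 at -0.04, named after their values were seen. The list was drawn up with earlier results of these arrays known, so its count is not independent evidence of a direction. Cdkn1a, the inhibitor of cyclin-dependent kinases, had log2 levels of 11.12 and 11.18 in mock and 12.29 and 12.53 in AT90ES cells, a change of 1.26 ± 0.13 (SE, adjusted p = 0.0347 in limma). Atm changed by 1.23, and the call of Cdkn1a too was lost without each array. Trp53inp1, a stress-induced partner of p53, rose by 3.12, Btg2, an antiproliferative gene, by 2.56 and Plk2, a stress-responsive kinase, by 2.55. The number of targets called higher was 14 with the trend, against 431 of all genes, and 14 with dim genes left out, against 165. It was 12 with median centring, against 172, and 8 with reference gene centring, against 76. With every probe tested separately it was 3, against 28. Fewer targets, and fewer of all genes, were called without any 1 array. The list median was then 0.88 and 0.83 without the first and the second mock array. Without the first and the second AT90ES array it was 0.80 and 0.84.

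Among 13 measured regulators and relatives of p53, 1 was called higher, against 0.415% of all genes, and 0 lower, against 0%. With the trend 4 were higher, against 1.94%. At an unadjusted p under 0.05, 4 were higher, against 4.5% of all genes, and 1 was lower, against 4.59%. The lower gene was Cdkn2a, named after its value was seen, at -0.37. Mdm2, the ubiquitin ligase that degrades p53 and a gene on both lists, had log2 levels of 8.48 and 8.68 in mock and 9.90 and 10.05 in AT90ES cells. Its rise was 1.39 ± 0.13 (SE, adjusted p = 0.0243 in limma), a call lost without each array at an adjusted p up to 0.171. Mdm4, its partner, had levels of 7.67 and 7.84 in mock and 8.43 and 8.23 in AT90ES cells, a change of 0.58 (adjusted p = 0.326 in limma and 0.0104 with the trend). The others with a call under the trend, Rchy1 at 0.44 and Ep300 at 0.31, were named after their values were seen. The median of these regulators was 0.07, and it was 0.14 without mock replicate 1 and 0.21 and 0.05 without the first and the second AT90ES array.

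Of 10 measured genes that link DNA-PK to cytosolic DNA sensing, limma without the trend called 0 higher, against 0.415% of all genes. It called 0 lower, against 0%. At an unadjusted p under 0.05, 3 were higher, against 4.5% of all genes, and 1 was higher with the trend, against 1.94%. That was Rela, the NF-kappaB subunit, at 9.53 and 9.76 in mock and 10.11 and 10.20 in AT90ES cells, a change of 0.51 (adjusted p = 0.375 in limma and 0.00231 with the trend). The other two with a small unadjusted p were Zbp1 at 0.43 and Hexim1 at 0.29, named after their values were seen. Nono, a nuclear protein of DNA repair and DNA sensing, changed by -0.06. Cgas changed by -0.31, Sting1 by 0.01, Irf3 by 0.045 and Tbk1 by 0.21, all named after their values were seen. The list median was 0.03, beside -0.02 over all genes, and 4 of 10 values were under 0, against 54.6%.

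By the distance between profiles centred over the 4 arrays, the genes most like Atm were Rnf213 at 0.07, Phlda3 at 0.09 and Cep170b at 0.09. Such a distance is small only where the change is close to that of Atm, so the rises of these genes follow from the selection. The comparison ran over 11703 genes above the olfactory receptor percentile on every array and was made after the values were seen. Rnf213 rose by 1.18, Phlda3 by 1.17 and Cep170b by 1.26, and each of the 3 calls was lost without any 1 array.

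All 9 measured members lay above the olfactory receptor percentile, 4.85 to 5.07, on each of the 4 arrays. The melanocyte markers were present, with 8 of 8 above that percentile and Dct and Tyrp1 at mean log2 levels of 12.91 and 12.77 in mock cells. None of these 8 was called in limma, against 0.415% of all genes higher and 0% lower. With the trend 1 was lower, against 0.73%. That was Mitf, named after its value was seen, at -0.34. Above the olfactory receptor percentile on every array were 4 of 9 markers of myeloid cells and 1 of 8 of lymphocytes. For fibroblasts and endothelium it was 4 of 9. None of these lists held a call in limma, against 0.415% of all genes higher and 0% lower. The mean log2 level of the myeloid list was 5.12 and 5.08 in mock and 4.88 and 5.06 in AT90ES cells. The part of other cells in the results was not tested.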

How the data were processed

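Total RNA (300 ng per array) from 4 samples was labelled with a whole-transcript kit, per the labels' protocols. Per the submitters' processing notes the authors used RMA, and the deposited table holds its log2 levels. Version and settings are not given in the sources used here. RMA equalises the arrays, so changes are relative to other genes.

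Of 41345 probes, 23521 had 1 gene symbol, 1814 several and 16010 none. The brightest single-symbol probe stood for each of 22180 genes. Group names came from the sample titles. The groups were compared with limma 3.58.1 (R 4.3.3), with two-sided p-values adjusted by Benjamini-Hochberg over all genes and 5.70 degrees of freedom a gene. The steps were tested on simulated data. An exact permutation test of 2 against 2 arrays cannot give a p under 0.333. Nothing says the replicates were separate cultures, so p-values may measure technical spread only. The number of arrays limits the precision.

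Members and lists were chosen with earlier results of these data known. Named were all members, a set of partners, and per list up to 3 genes past the threshold or the 2 brightest; others are said to be named after their values were seen. The planned contrast with Trp53 and the search for profiles like it were not run; differences between kinases and profiles like Atm took their place. Promoter sequences came from RefSeq (GRCm38.p6), with windows for 8 of the 9 measured members.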

Additional observations from a re-analysis of the deposited data

Results flagged for a closer look

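A probe that the annotation assigns to both Cyren and Tmem140, and that entered no gene comparison, passed as higher after AT90ES in the fit over single probes. Cyren encodes a regulator of end joining. Mock cells had log2 levels of 3.98 and 4.29 and AT90ES cells 7.21 and 6.93, a measured change of 2.94 (adjusted p = 0.0396 in limma), and it drew attention as a signal above mock in data outside the main measurement. Both mock values lay under the olfactory receptor percentile of 5.07 and 4.93 on those arrays, so the change was measured from a level near background and its exact size is uncertain. Another probe assigned to the same pair changed by -0.20 (adjusted p = 0.828 in limma), so the probes disagree and neither names a gene.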

How the results depend on the processing

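The member called higher, Atm, numbered 1 as reported and 0 with every probe tested separately (adjusted p = 0.172), 0 with a crossed replicate block (0.0525) and 0 to 0 without 1 array; its change stayed positive in every alternative, and its adjusted p ran from 1.59e-06 to 0.184. Members lower numbered 0 as reported and 1, Chek1, with an intensity trend. Genes higher numbered 92 as reported, 431 with a trend, 165 with dim genes left out, 172 with median centring, 28 with every probe tested separately, 59 with the crossed replicate block and 32 to 47 without 1 array. Genes lower numbered 0 as reported, 162 with a trend, 6 with dim genes left out and 4 with median centring. With the replicate number as a block, 85 genes and 1 member, Atm, were higher; same-numbered arrays deviated in opposite directions (correlation across genes -0.222), so the numbers were not taken to pair the samples, and the crossed pairing was added after seeing the data. Centring on the median or on reference genes moved every change by 0.03 or -0.05. For 52 of the genes named, 578 comparisons with an alternative kept their side of the threshold and direction of call, 36 lost the call and 9 gained it. Nhej1, Cdkn2a, Rchy1, Ep300, Zbp1, Hexim1, Mitf, Pmaip1, Perp, Sesn1, Cgas, Sting1, Irf3 and Tbk1 were not part of this count. Of the 52 genes counted, 9 were called: Atm, Cdkn1a, Mdm2, Trp53inp1, Btg2, Plk2, Rnf213, Phlda3 and Cep170b. The cause of these differences was not tested.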
